A study of Mus musculus with 20 samples.

Results

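The tubule injury markers examined here are 7 genes that are used to recognise damaged kidney tubule cells: Havcr1, Lcn2, Vcam1, Cd44, Clu, Dcdc2a and Prom1. They were chosen by symbol from the 47069 genes of the deposited count table, and all 7 were among the 17622 genes that passed the filter on low counts. Whole-kidney RNA came from 20 male mice of a mixed 129SJ x C57Bl/6J background, killed at 15 weeks of age. The WT group held 5 untreated wild-type littermates. The other 15 mice were F1-Col4a3-/- mice, which lack a functional α3 chain of type IV collagen from birth in every cell, as a mouse model of Alport syndrome. From 5 weeks of age, 6 received weekly subcutaneous PBS (Veh) and 6 received weekly subcutaneous lademirsen at 50 mg/kg, an oligonucleotide that binds and blocks miR-21 (anti-miR-21). A further 3 received the angiotensin-converting enzyme inhibitor ramipril in drinking water with PBS injections (ACEi). The labels give the ramipril dose as 11 mg/L, whereas the deposited library table gives 4 mg/kg. The Veh and treated mice thus shared the mutation, and only the WT mice had no injections.

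Havcr1 encodes KIM-1, a phosphatidylserine receptor that injured proximal tubule cells place on their apical surface. Lcn2 encodes NGAL, an iron-siderophore binding protein that the injured distal nephron and neutrophils secrete. Vcam1 encodes an adhesion molecule for leukocyte integrins, and Cd44 encodes the main receptor for hyaluronan. Clu encodes clusterin, a secreted chaperone, Dcdc2a a doublecortin-domain protein of the primary cilium, and Prom1 encodes CD133, a pentaspan membrane protein of epithelial progenitor-like cells. In the healthy kidney most of these transcripts are scarce. They appear when tubule cells lose their differentiated state, and Vcam1, Dcdc2a and Prom1 are known from proximal tubule cells that fail to complete repair.

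Because the treatment was directed at miR-21, the sequence of that miRNA is shown with its seed, bases 2 to 8, in capitals. The RefSeq entry on GRCm38.p6 lies on the minus strand at chr11:86584120-86584141.
mmu-miR-21a-5p: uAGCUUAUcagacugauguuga
The 7 bases that pair with this seed, ATAAGCT on the transcript strand, were searched in the longest annotated 3′ UTR of each gene (GENCODE M21, GRCm38). They were found in 0 of the 7 markers, whose UTRs ran from 230 bases in Clu to 5188 bases in Dcdc2a, and in 7.18% of 21022 genes with a 3′ UTR. This says only that these letters are not in these windows.

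The RefSeq promoter table held 5 of the 7 markers, not Vcam1 or Clu, in windows of 250 bases before to 50 after each start. The windows of Havcr1 and Lcn2 are shown because these markers differed most in their response to treatment. Capitals mark matches to the NF-kB, AP-1, STAT, C/EBP or TATA box motif. The Havcr1 window lies on the plus strand at chr11:46739973-46740272 and the Lcn2 window on the minus strand at chr2:32387690-32387989 (GRCm38.p6).
Havcr1: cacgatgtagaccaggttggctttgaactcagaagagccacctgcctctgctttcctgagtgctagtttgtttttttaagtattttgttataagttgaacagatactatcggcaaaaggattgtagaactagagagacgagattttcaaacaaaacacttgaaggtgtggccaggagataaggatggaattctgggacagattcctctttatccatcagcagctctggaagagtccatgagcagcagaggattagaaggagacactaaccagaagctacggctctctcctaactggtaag
Lcn2: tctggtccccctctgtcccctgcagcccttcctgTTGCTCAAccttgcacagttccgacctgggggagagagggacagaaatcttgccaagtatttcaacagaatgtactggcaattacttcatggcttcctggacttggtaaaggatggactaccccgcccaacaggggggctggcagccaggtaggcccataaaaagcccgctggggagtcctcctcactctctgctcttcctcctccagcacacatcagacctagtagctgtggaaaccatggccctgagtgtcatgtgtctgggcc
On both strands, the Lcn2 window held 1 match to the C/EBP motif TTNNGNAA, on the opposite strand at position -216 from the start, and the Havcr1 window shown held none of the 5 motifs. C/EBP matches stood in 4 of the 8 windows of the 5 markers and in 40.7% of all 32851 windows. Besides Lcn2, these were both Prom1 windows and the Havcr1 window at chr11:46750261-46750560, so the motif does not separate Lcn2 from Havcr1. A match to the AP-1 motif TGANTCA was found in 3 of the 8 windows, against 7.81% of all windows. These were both Prom1 windows and the Havcr1 window at chr11:46750918-46751217. The STAT motif TTCNNNGAA was found in Dcdc2a alone and in 8.30% of all windows. The NF-kB motif (4.51% of all windows), the TEAD motif GGAATG (14.7%), the SOX motif ACAATG (12.6%) and the TATA box TATAAA (13.6%) were found in none of the 8. No marker's matches overlapped each other, and a match is a run of letters, not a site known to be bound.

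Estimated counts summed to between 28474301 and 29479629 per mouse, so depth was nearly equal between libraries. Levels are given as CPM, the count relative to the library total after TMM scaling, a factor that corrects for libraries dominated by a few abundant genes. Col4a3 had 194 to 238 CPM in WT and 27.9 to 74.9 CPM in the 15 mutant mice, with no overlap. The extraction protocol in the labels names adipose tissue, but 10 proximal tubule genes summed to between 2084 and 25611 CPM in every library and 5 adipocyte genes to between 0.394 and 120 CPM. Among WT mice, A18 had the lowest summed level of 5 endothelial genes, at 90.4 CPM against 259 in the highest, and of 5 fibroblast genes, at 111 against 258 CPM. The 5 adipocyte genes set apart 4 libraries, with 90.1, 120 and 90.5 CPM in the Veh mice A1, A4 and A9 and 99.7 CPM in the anti-miR-21 mouse A12, against at most 22.4 CPM in the other 16. Of these genes 4 rose in Veh against WT and 4 were lower with ACEi than Veh (median log2 -4.59). Counts of markers are therefore also given without these 4 libraries. In whole tissue, fewer cells of a type and less RNA per cell cannot be told apart.

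The comparison of Veh with WT asks how the markers stand in untreated disease. All 7 were higher in Veh, and for all 7 the lowest Veh mouse lay above the highest WT mouse. Their median log2 fold change was 3.74, against 0.07 over all genes tested. Of all genes, 39.0% were called higher and 34.0% lower, and 28.8% were higher without overlap of the groups. A gene was called at an adjusted p under 0.05 by edgeR's quasi-likelihood test with Benjamini-Hochberg adjustment over the 17622 genes. The p-values reflect the spread between mice. With library totals in place of TMM, the share of calls that were higher was 81.2% in place of 53.4%, with a median log2 fold change over all genes of 0.65, and all 7 markers were still called higher.

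Lcn2 (ENSMUSG00000026822, GRCm38 chr2:32384633-32388252) changed most among the markers. In the 5 WT mice it had 1.83, 2.42, 3.08, 5.23 and 5.79 CPM, and in the 6 Veh mice 283 to 710 CPM with a median of 431. The lowest Veh mouse thus had many times the level of the highest WT mouse. The means were 3.67 ± 1.75 CPM (SD, n = 5) and 456 ± 177 CPM (SD, n = 6), a 124-fold difference (log2 6.95, SE 0.41, edgeR adjusted p = 1.4e-11), the 36th highest log2 fold change of 17622. Within Veh, mice A1, A4 and A9 had 710, 582 and 533 CPM, and A16, A19 and A20 had 283, 299 and 328 CPM. The 3 with more Lcn2 were those high in adipocyte genes, and they were also on sequencing flow cell A. Of the others, A19 was on flow cell A, and A16 and A20 were on flow cell B. In WT, Lcn2 had 1.83 to 3.08 CPM on flow cell A and 5.23 to 5.79 CPM on flow cell B. The part of adipocyte genes or flow cell in this split was not tested. Without the 4 libraries high in adipocyte genes, all 7 markers were still called higher in Veh, with Lcn2 at log2 6.37 (edgeR adjusted p = 1.3e-09).

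Vcam1 (ENSMUSG00000027962, chr3:116109949-116129688) and Cd44 (ENSMUSG00000005087, chr2:102811141-102901665) were nearly silent in WT. Vcam1 had 3.48, 5.56, 6.06, 7.90 and 9.02 CPM in the WT mice and 235 to 384 CPM (median 322) in the Veh mice. It rose 49.8-fold (log2 5.64, SE 0.24, edgeR adjusted p = 4.9e-13). Cd44 had 0.629, 1.56, 1.60, 2.0 and 3.04 CPM in WT and 54.7 to 70.6 CPM (median 65.2) in Veh, the tightest of the markers in that group. It rose 35.8-fold (log2 5.16, SE 0.24, edgeR adjusted p = 7.5e-13). The annotated antisense gene Gm43109 overlaps Vcam1 and a small nuclear RNA gene, Gm23731, overlaps Cd44. Whether the counting used strand is not given in the sources used here, so reads of such overlapping genes cannot be told apart.

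Havcr1 (ENSMUSG00000040405, chr11:46735080-46779578) had 11.1, 11.4, 18.7, 20.3 and 25.2 CPM in WT and 124 to 338 CPM (median 213) in Veh. Although the groups did not overlap, the Veh mice differed among themselves by 2.73-fold, the widest spread of the markers in that group. The means were 17.3 ± 6.04 CPM (SD, n = 5) and 232 ± 78.3 CPM (SD, n = 6), a 13.4-fold rise (log2 3.74, SE 0.28, edgeR adjusted p = 3.4e-10).

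Clu, Dcdc2a and Prom1 were the markers with the smaller changes. Clu (ENSMUSG00000022037, chr14:65968483-65981547) was already abundant in WT, at 261, 301, 326, 369 and 369 CPM, and reached 1481 to 2657 CPM (median 1925) in Veh, a 6.17-fold rise (log2 2.63, SE 0.17, edgeR adjusted p = 3.6e-11). Dcdc2a (ENSMUSG00000035910, chr13:25056004-25210706) went from 10.6, 12.6, 15.5, 15.8 and 19 CPM to between 81.6 and 128 CPM (median 100.2), a 7.0-fold rise (log2 2.81, SE 0.17, edgeR adjusted p = 1.6e-11). Prom1 (ENSMUSG00000029086, chr5:43993620-44102032) had 33.1, 34.3, 38.5, 39.9 and 65.9 CPM in WT and 94.7 to 133 CPM (median 119) in Veh, the smallest rise at 2.72-fold (log2 1.44, SE 0.16, edgeR adjusted p = 8.8e-08). The WT mouse A6 at 65.9 CPM stood apart from the other WT mice and still lay below every Veh mouse. A processed pseudogene, Gm11348, overlaps Dcdc2a, and the annotated genes Gm42716 and Gm16401 overlap Prom1. Within Veh, Clu had 1854 to 2657 CPM on flow cell A and 1481 to 1650 CPM on flow cell B. Dcdc2a had 97.5 to 128 CPM and 81.6 to 91.4 CPM. The other markers overlapped between flow cells in Veh. Clu and Dcdc2a, like Lcn2, were also split by the libraries high in adipocyte genes. In A1, A4 and A9 Clu had 1996 to 2657 CPM, against 1481 to 1854 CPM in the other Veh mice. Dcdc2a had 103 to 128 CPM in A1, A4 and A9, against 81.6 to 97.5 CPM. The part of adipocyte genes or flow cell in these splits was not tested.

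**Figure D1:**
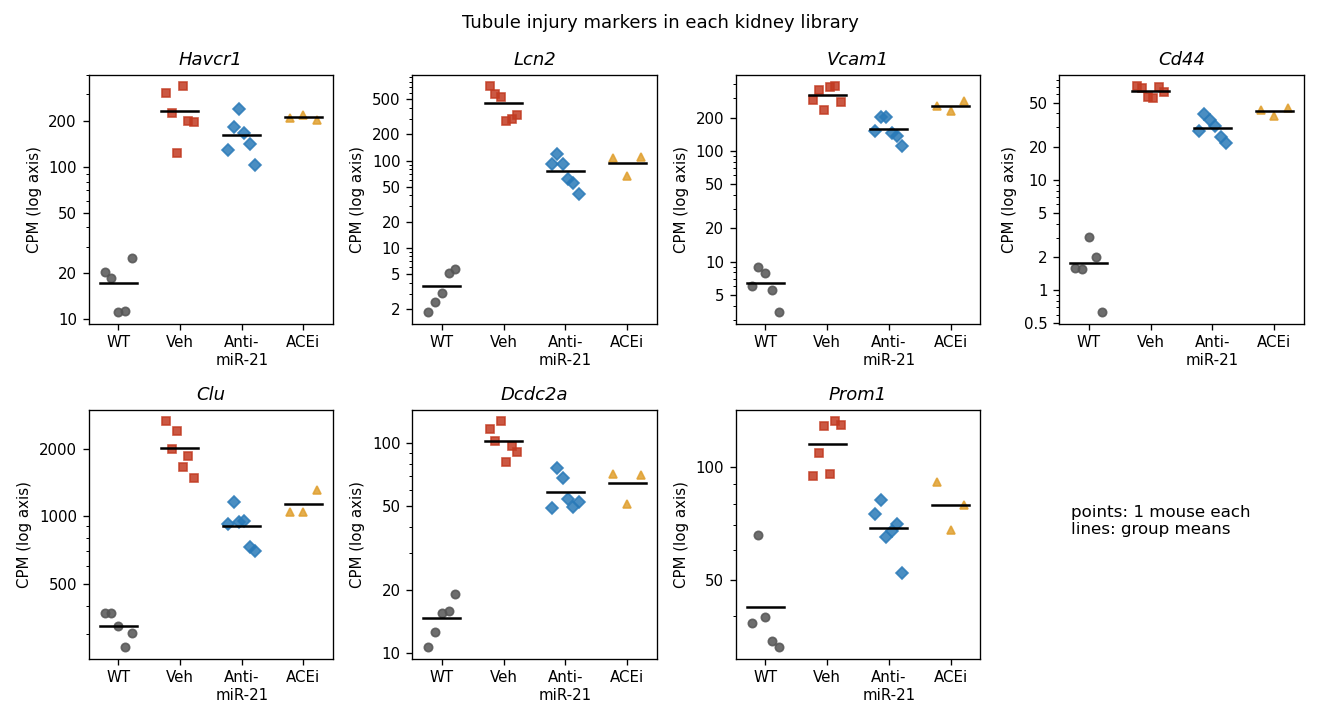
TMM-scaled CPM (log axis) of each marker in each of the 20 mice by group, with lines at the group means. Every Veh mouse lies above every WT mouse for all 7 markers, and Lcn2 is the marker whose treated mice lie furthest below Veh, at 41.8 to 119 CPM against 283 to 710 CPM.

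Levels between genes were compared only per length, with the FPKM that the authors deposited. In WT, Clu led at 148 FPKM (mean, n = 5). Prom1 (9.48), Havcr1 (7.42), Lcn2 (3.49), Dcdc2a (1.80) and Vcam1 (1.65 FPKM) followed, and each overlapped its neighbour in this order. Cd44 was lowest at 0.332 FPKM, below every other marker without overlap. In Veh, Lcn2 moved up to the second place at 651 FPKM (mean, n = 6), below Clu at 1384 and above Havcr1 at 148 and Vcam1 at 125 FPKM, which overlapped each other. Prom1 stood at 38.8 FPKM, and Dcdc2a (18.8) and Cd44 (17.8) overlapped each other at the bottom. In the anti-miR-21 group Lcn2 (87.3) overlapped Havcr1 (81.7 FPKM), and in the ACEi group both were at 111 FPKM. Lcn2 and Havcr1, which did not overlap in Veh, thus overlapped under either treatment, while the order of the means under anti-miR-21 was that of Veh.

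Anti-miR-21 was then compared with Veh, which received PBS. No group received a control oligonucleotide, so blocking of miR-21 cannot be told apart from other effects of the oligonucleotide. Of the 7 markers, 6 fell and none rose, with a median log2 fold change of -1.01 against -0.04 over all genes. For the same 6, the highest treated mouse lay below the lowest Veh mouse. Over all genes, 30.5% were called lower, 28.8% higher, and 17.9% were lower without overlap. With library totals, the share of calls that were higher was 20% in place of 48.6%, with an all-gene median of -0.38. Havcr1 was the marker that did not pass the test.

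Lcn2 had 41.8 to 119 CPM (median 75.6) in the 6 anti-miR-21 mice, and every one of them lay below the lowest Veh mouse at 283 CPM. The mean of 76.2 ± 28.4 CPM (SD, n = 6) was 5.98-fold below Veh (log2 -2.58, SE 0.30, edgeR adjusted p = 4.7e-07). Lcn2 ranked 171st of 17622 genes from the most negative log2 fold change. It remained 20.7-fold above WT. Without the 4 libraries high in adipocyte genes, 6 of the 7 markers were still called lower, and Lcn2 was at log2 -1.91 (edgeR adjusted p = 0.00014). The changes of Clu, Dcdc2a and Cd44 were then also smaller in size, at -0.88, -0.59 and -1.04. Those of Vcam1, Prom1 and Havcr1 were larger in size, at -1.08, -0.77 and -0.60.

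Clu had 700 to 1157 CPM (median 933), 2.23-fold below Veh (log2 -1.16, edgeR adjusted p = 1.5e-06). Cd44 had 21.6 to 39.7 CPM (median 29), 2.13-fold below (log2 -1.09, adjusted p = 1.5e-05), and Vcam1 110 to 203.6 CPM (median 149), 2.01-fold below (log2 -1.01, adjusted p = 7.1e-05). None of these ranges overlapped Veh. Dcdc2a had 49.0 to 76.1 CPM (median 53.1, log2 -0.82, adjusted p = 5.6e-05) and Prom1 52.1 to 81.7 CPM (median 69.0, log2 -0.75, adjusted p = 0.00025).

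Havcr1 had 103 to 241 CPM (median 155) with anti-miR-21, a range that overlapped Veh at 124 to 338 CPM. The log2 difference was -0.53 (95% confidence interval -1.01 to -0.04, edgeR adjusted p = 0.057), which did not pass the threshold. The call turned with the settings. Havcr1 passed with library totals in place of TMM (log2 -0.84, adjusted p = 0.0033), with DESeq2 (-0.54, adjusted p = 0.041) and without mouse A9 (-0.64, adjusted p = 0.018), A10 (-0.67, adjusted p = 0.019) or the WT mouse A18 (-0.53, adjusted p = 0.048). With flow cell as a term it did not (-0.49, adjusted p = 0.068).

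**Figure D2:**
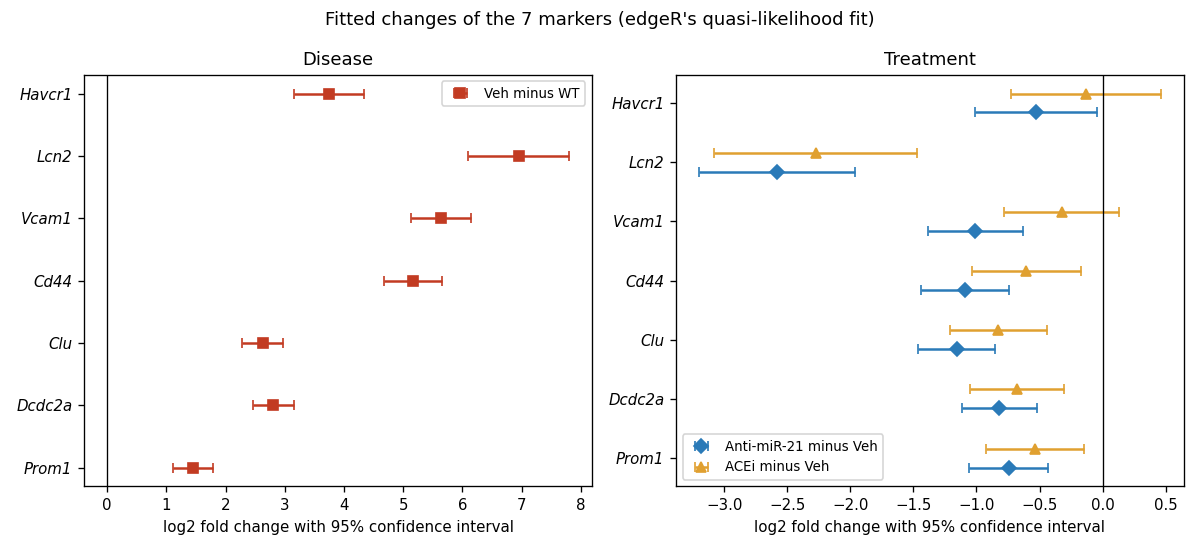
Log2 fold changes with 95% confidence intervals from edgeR's quasi-likelihood fit, for Veh minus WT (left) and for each treatment minus Veh (right). Lcn2 has the largest change in every panel, and the interval of Havcr1 under ACEi, -0.73 to 0.46, includes 0.

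ACEi was compared with Veh in the same fit, with 3 treated mice. Of the 7 markers, 5 fell and none rose, with a median log2 fold change of -0.60 against -0.05 over all genes, and the same 5 did not overlap Veh. Over all genes, 19.1% were called lower, 21.0% higher, and 18.8% were lower without overlap. With library totals, the share of calls that were higher was 20.5% in place of 52.4%, with an all-gene median of -0.32. Both treatments were set against the same 6 Veh mice. Lcn2 had 67.1, 107 and 109 CPM in the 3 mice, all below the lowest Veh mouse, and was 4.84-fold lower (log2 -2.27, edgeR adjusted p = 0.00013). Clu had 1042, 1044 and 1302 CPM (log2 -0.83, adjusted p = 0.0015) and Dcdc2a 51.5, 70.3 and 71.2 CPM (log2 -0.68, adjusted p = 0.0051).

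Cd44 had 37.5, 42.7 and 44.8 CPM (log2 -0.61, edgeR adjusted p = 0.025), and Prom1 had 68.0, 79.5 and 91.1 CPM (log2 -0.54, adjusted p = 0.027). These calls rested on few mice. Without the ACEi mouse A13, which had the lowest level of 6 of the 7 markers in its group, Cd44, Prom1 and Dcdc2a no longer passed (adjusted p = 0.12, 0.15 and 0.054) and 2 markers, Lcn2 and Clu, remained called. Without A23 or the Veh mouse A19, 3 remained. Cd44 also lost its call without A1, A4 or A11 (edgeR adjusted p = 0.056, 0.055 and 0.069). Prom1 did so without A9 or A20 (edgeR adjusted p = 0.063 and 0.061). Without the 4 libraries high in adipocyte genes, 2 remained, Lcn2 (log2 -1.66, adjusted p = 0.0034) and Clu (-0.53, adjusted p = 0.041).

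Havcr1 and Vcam1 were not called under ACEi. Havcr1 had 203.1, 210.3 and 220.2 CPM, inside the Veh range of 124 to 338 CPM, with a log2 difference of -0.14 (95% confidence interval -0.73 to 0.46, edgeR adjusted p = 0.74). Vcam1 had 228, 255 and 280 CPM, overlapping the lower Veh mice, with a log2 difference of -0.33 (interval -0.78 to 0.13, adjusted p = 0.25). With library totals in place of TMM, Vcam1 passed (log2 -0.59, adjusted p = 0.045), and without the Veh mouse A16 the log2 difference of Havcr1 was 0.03.

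The treatments were compared directly in the 6 anti-miR-21 and 3 ACEi mice. All 7 estimates were lower with anti-miR-21, but 0 of 7 passed edgeR's test after adjustment, and 0 with DESeq2. At an unadjusted p under 0.05 there were 2, Vcam1 and Cd44. Calls were rare in this comparison, with 0.221% of all genes lower, 0.363% higher and 4.80% lower without overlap. Vcam1 was the marker without overlap, at 110 to 203.6 CPM against 228 to 280 CPM (log2 -0.68, 95% confidence interval -1.13 to -0.24, edgeR adjusted p = 0.14). For Cd44 the log2 difference was -0.48 (interval -0.90 to -0.07, adjusted p = 0.27), with overlap. The intervals of Havcr1 (-0.98 to 0.19), Lcn2 (-1.02 to 0.40), Clu (-0.69 to 0.04), Dcdc2a (-0.50 to 0.22) and Prom1 (-0.59 to 0.17) included 0.

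To ask whether some markers moved further than others, the log2 ratio between each of the 21 pairs of markers was formed within each library, where the scaling between libraries cancels, and compared between each treatment and Veh with an exact two-sided permutation test over mice (42 tests, Benjamini-Hochberg adjusted). This comparison was added after the values were seen. Under anti-miR-21, 6 of 21 pairs differed, and these were the 6 pairs with Lcn2. They share this gene and so are not 6 separate results. The ratios were not formed again without the 4 libraries high in adipocyte genes. The log2 ratio of Lcn2 to each of the other markers fell by between 1.43 (Clu) and 2.07 (Havcr1), without overlap between the groups, each at an exact permutation p = 0.0022, the smallest that 6 against 6 mice allow (adjusted p = 0.015). The ratio of Havcr1 to Lcn2 went from -0.96 ± 0.80 (SD, n = 6) in Veh to 1.11 ± 0.43 (SD, n = 6).

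Under ACEi the Lcn2 ratios fell by between 1.41 (Clu) and 2.15 (Havcr1), also without overlap in any of the 6 pairs. Each exact permutation p was 0.024, the smallest that 3 against 6 mice allow, with adjusted p = 0.077, and 0 of 21 pairs passed. Among the markers other than Lcn2 no pair passed under anti-miR-21. The log2 ratios of Havcr1 to Vcam1, Cd44 and Clu differed from Veh by 0.51, 0.61 and 0.64, with overlap and short of the threshold (exact permutation adjusted p = 0.078, 0.079 and 0.10). Without the Veh mouse A16, the Cd44 and Clu differences were 0.77 and 0.82 and passed (adjusted p = 0.023 for both). So did the ratio of Cd44 to Dcdc2a without A9 and that of Clu to Dcdc2a without A20 (-0.39 and -0.37, adjusted p = 0.026 for both).

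**Figure D3:**
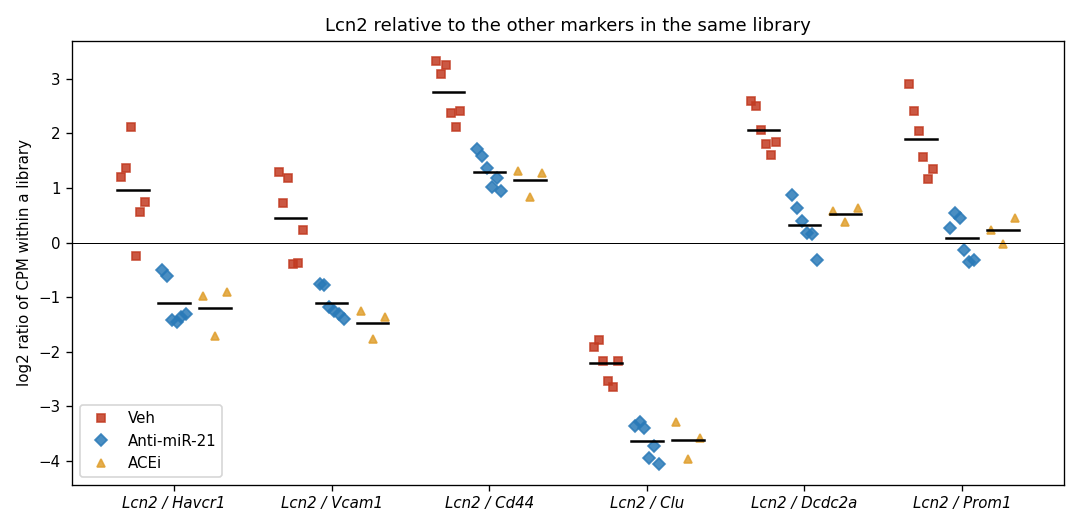
Log2 ratio of Lcn2 to each of the other 6 markers within a library, by mouse and group, with lines at the group means. For all 6 ratios the anti-miR-21 and ACEi mice lie below every Veh mouse.

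Both treated groups were still above WT. All 7 markers were higher than WT with anti-miR-21, where 23.9% of all genes were called higher, and 6 did not overlap WT, against 14.7% of all genes. All 7 were higher with ACEi (25.2% of all genes), without overlap for all 7 (23.9% of all genes). Vcam1 was 24.7-fold above WT with anti-miR-21 and 39.7-fold with ACEi, and Cd44 16.8-fold and 23.5-fold. Havcr1 was 9.27-fold and 12.2-fold above WT. Prom1 was nearest to WT, at 1.62-fold (log2 0.70, edgeR adjusted p = 0.0015) and 1.88-fold, and with anti-miR-21 its range overlapped the WT mouse A6. These comparisons share the Veh or WT mice with those above.

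The position of each treated mouse between the Veh mean (0%) and the WT mean (100%) on the log2 CPM scale describes the same values per mouse. With anti-miR-21 it was highest for Prom1 at 50.4% ± 14.9 (SD, n = 6), followed by Clu at 44.0% ± 10.4, Lcn2 at 36.9% ± 7.97, Dcdc2a at 29.4% ± 9.47, Cd44 at 21.2% ± 6.21, Vcam1 at 18% ± 6.06 and Havcr1 at 13.6% ± 11.4. With ACEi it ran from 35.9% ± 14.3 (SD, n = 3) for Prom1 to 5.43% ± 2.58 for Vcam1 and 1.66% ± 1.56 for Havcr1. The Prom1 and Clu ranges overlapped each other in both groups, and so did those of Vcam1 and Havcr1. On linear CPM the order changed, and Lcn2 led at 84.0% with anti-miR-21 and 80.0% with ACEi, while Havcr1 stayed last at 33.1% and 9.65%.

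**Figure D4:**
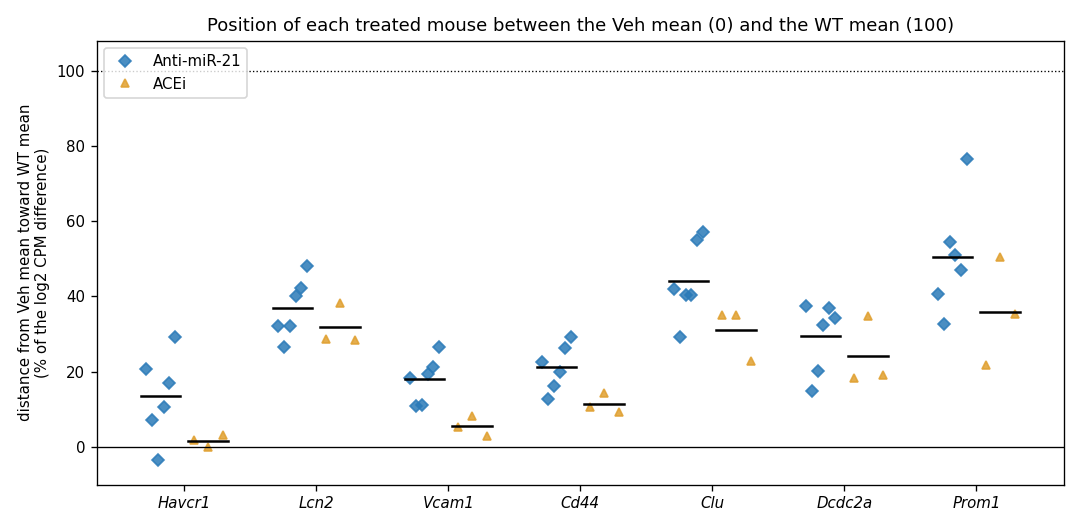
Position of each treated mouse between the Veh mean (0) and the WT mean (100), as a percentage of the log2 CPM difference, by marker, with lines at the group means. No mouse reaches the WT mean for any marker, and the ACEi mice lie within 3.14% of the Veh mean for Havcr1.

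Mice tended to be high or low for several markers at once. In the anti-miR-21 group A8 had the highest level of 6 of the 7 markers, all but Havcr1, and A22 the lowest of 6, all but Dcdc2a. The same mice were at the ends for proximal tubule transcripts: the 10 genes summed to 10799 CPM in A8 and 18139 CPM in A22, the lowest and highest of that group. Summed macrophage genes ran the other way, at 1109 CPM in A8 and 577 CPM in A22. The part of these cell types in the marker levels was not tested.

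In Veh no mouse was highest or lowest for most of the markers. An order was shared in part: for Lcn2, Clu and Dcdc2a, mice A1, A4 and A9 all lay above A16, A19 and A20. Havcr1, Vcam1, Cd44 and Prom1 were not split in this way. A16 had the highest Havcr1 of the group (338 CPM) and the lowest Lcn2 (283), Cd44 (54.7) and Dcdc2a (81.6 CPM). A9 had the lowest Havcr1 (124) and Vcam1 (235 CPM) and the highest Dcdc2a (128 CPM). Summed proximal tubule transcripts were highest in A16, at 6163 CPM, and lowest in A9, at 2084 CPM. A1, with the highest Lcn2, Cd44 and Clu, had 2207 CPM of these transcripts and a Havcr1 of 306 CPM.

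**Figure D5:**
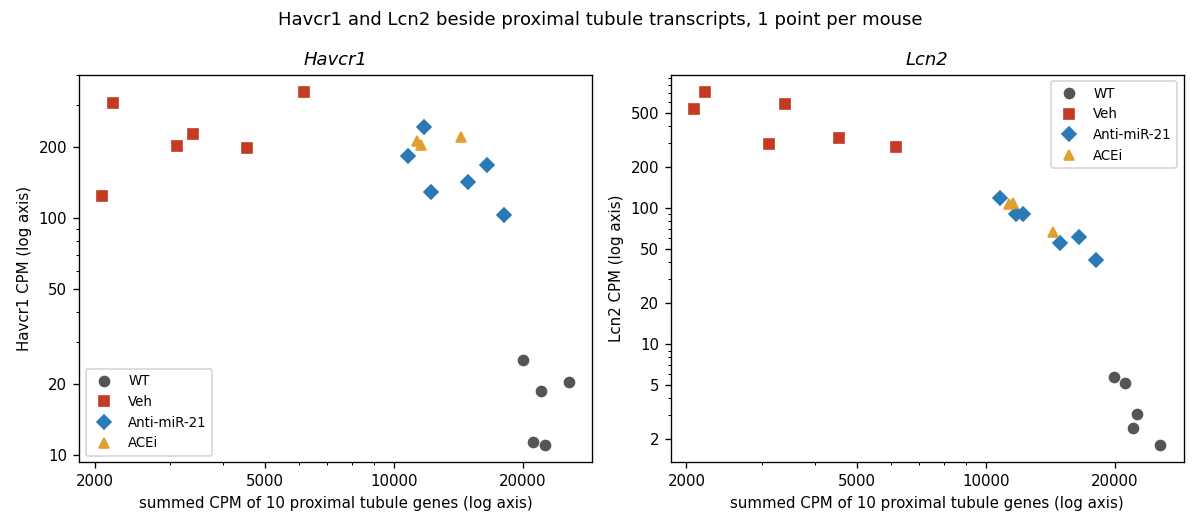
CPM of Havcr1 (left) and Lcn2 (right) against the summed CPM of 10 proximal tubule genes, both on log axes, with 1 point per mouse. The treated mice lie between Veh and WT on the x axis, where their Lcn2 is below every Veh mouse and their Havcr1, at 103 to 241 CPM, overlaps Veh.

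Other cell types changed in the same kidneys. Each of the 10 proximal tubule genes was lower in Veh than in WT (median log2 -2.50, 34.0% of all genes were lower), among them Acsm2 (-3.19) and the organic anion transporter Slc22a6 (-2.94), and all 10 were higher under each treatment (median 2.05 and 1.83). Of 6 macrophage genes all 6 rose in Veh (median log2 4.17), with summed levels of 149 to 183 CPM in WT and 1427 to 1747 CPM in Veh, and all 6 fell under each treatment (medians -0.95 and -0.96). Of 5 fibroblast genes all 5 rose (median 2.03), and 4 fell with anti-miR-21 (median -1.06) and 2 with ACEi (median -0.70). Over all genes, 39.0% rose in Veh, 30.5% fell with anti-miR-21 and 19.1% fell with ACEi. The shares higher than Veh were 28.8% with anti-miR-21 and 21.0% with ACEi. Macrophages and fibroblasts can also express Cd44, and Vcam1 marks activated endothelium. Of the 5 endothelial genes 2 were higher and 1 lower in Veh, with summed levels of 90.4 to 259 CPM in WT and 208.4 to 263 CPM in Veh. The neutrophil list could bear on Lcn2: 4 of its 6 genes were tested, all but Ly6g and Retnlg, and 2 rose. The 4 tested genes summed to 0.676 to 4.05 CPM in WT and 15.1 to 22.1 CPM in Veh. The part of these cells in the marker changes was not tested.

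Lists of further injury genes were read beside the markers. They were chosen for what they are known for, but with earlier results of these data known, so they are not independent support. Of 7 tested injury biomarkers that are measured in urine or plasma, 6 rose in Veh and none fell (median log2 1.02), with Fabp1 not called (log2 -0.52). Of all genes, 39.0% rose in Veh. Spp1, encoding osteopontin, a ligand of CD44, changed most, reaching 11741 CPM (log2 4.31, edgeR adjusted p = 7.5e-13), followed in size of change by Gdf15 (2.41) and Timp2 (2.15). With anti-miR-21 6 of the 7 fell (median -0.42, 30.5% of all genes fell) and with ACEi 4 of the 7 (median -0.39, 19.1% of all genes fell). Tff3 had too few counts to be tested.

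Of 20 genes of injured or incompletely repaired tubules, 19 rose in Veh and 1 fell (median log2 2.31), against 39.0% and 34.0% of all genes. The largest changes were those of Sprr2f (log2 7.40), the chemokine Ccl2 (7.14), the keratin Krt20 (6.56) and Cxcl1 (4.80). Their WT means were only 0.0332, 0.271, 0.215 and 0.883 CPM, so the sizes of these changes rest on WT levels near the floor. In Veh the means were 6.39, 38.5, 21.0 and 24.9 CPM. The gene that fell was the integrin Itgb6 (-0.37), named after its value was seen. With anti-miR-21 17 fell and 1, Itgb6, rose (median -0.90, 30.5% of all genes fell). With ACEi 10 fell and 1, Hmox1, rose (median -0.52, 19.1% of all genes fell). Hmox1 was also named after its value was seen. Ccl2, like Havcr1, was not called with either treatment (log2 -0.42, edgeR adjusted p = 0.12 with anti-miR-21, and -0.13, adjusted p = 0.75 with ACEi). Krt20 fell with anti-miR-21 (-0.82, adjusted p = 0.0023) and was not called with ACEi (-0.35, adjusted p = 0.29). Neither list differed in any gene between the treatments at an adjusted p under 0.05. Such calls were rare over all genes, with 0.221% lower and 0.363% higher with anti-miR-21, so their absence says little about these lists.

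Known partners of the markers were read in the same fit. The KIM-1 sheddases rose slightly in Veh, Adam10 by 0.48 and Adam17 by 0.60 on the log2 scale, whereas Timd2, a mouse relative of Havcr1, fell by 0.54 and was higher than Veh with anti-miR-21 (0.95) and ACEi (0.83). The related Havcr2 rose (3.47) and so did Timd4 (2.26), from 0.0586 to only 0.299 CPM. The endocytic receptor Lrp2, or megalin, which takes up filtered NGAL and clusterin, fell from a mean of 1537 to 292 CPM in Veh (log2 -2.40, edgeR adjusted p = 1.1e-09). It was higher than Veh with anti-miR-21 at 1106 CPM (1.92) and with ACEi at 836 CPM (1.52). Mmp9, whose product binds NGAL, rose in Veh (3.65) and fell with both treatments (-2.60 and -1.66), further with anti-miR-21 than with ACEi (-0.94, edgeR adjusted p = 0.041), and the NGAL receptor Slc22a17 fell slightly in Veh (-0.43).

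All 4 integrin subunits that form VCAM-1 receptors rose in Veh, Itga4 (log2 1.99), Itga9 (1.67), Itgb1 (0.81) and Itgb7 (2.44). All 4 fell with anti-miR-21 (-0.41 to -1.04) and 0 of 4 were called with ACEi by edgeR (-0.16 to -0.52). For comparison, 39.0% of all genes rose in Veh, 30.5% fell with anti-miR-21 and 19.1% fell with ACEi. The count of 0 of 4 under ACEi therefore says little about these genes. At an unadjusted p under 0.05, 2, Itga9 and Itgb1, were lower with ACEi. Between the treatments, 0 of 4 were called (edgeR adjusted p = 0.25 to 0.46), so a difference between them is not shown. Among the hyaluronan partners of CD44, Has2 and Has1, which make hyaluronan, had 0 counts in every WT mouse and only 1.12 and 0.291 CPM (means) in Veh, while the hyaluronidases Hyal1 and Hyal2 fell (-0.60 and -0.44) and Hmmr, another hyaluronan receptor, rose (3.45). Of the ERM proteins that tie CD44 to actin, Msn rose (1.43), Rdx fell (-0.73) and Ezr was not called (-0.08, adjusted p = 0.29).

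Of the clusterin receptors, Trem2 of macrophages rose in Veh (log2 4.81), Lrp8 rose (1.33) and Vldlr fell (-0.87). Dclk1 and Dcx, doublecortin-family relatives of Dcdc2a, rose (4.34 and 4.6), although Dcx had only 0.707 CPM in Veh, and Dclk1 fell with anti-miR-21 (-1.51) and ACEi (-0.80). Dcdc2b rose slightly (0.58) and Dcdc2c was not tested. Prom2, the other prominin gene, moved against Prom1: it fell in Veh (-1.29, edgeR adjusted p = 2.7e-08), was higher than Veh with anti-miR-21 (0.52, adjusted p = 0.0017) and was not called with ACEi (-0.05, adjusted p = 0.83).

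The genes most like each marker were found by the root mean square difference of log2 CPM, each centred on its WT mean, over the 20 mice and 12563 protein-coding genes, as a description. Prom1 was nearest to Setd7 (0.16), Hfe and Usp11, Clu to Arpc1b (0.17), Tmem98 and Plekho1, and Dcdc2a to Cp (0.23), Vim and Mxra7. Cd44 was nearest to H2-DMb2 (0.41), Ccl9 and Ctss, and Vcam1 to Stra6 (0.42), Il1rn and Cxcl2. Lcn2 was nearest to Clec4n (0.47), Adgra1 and Gabrp. For Havcr1 the nearest genes were Fgg (0.48), which encodes fibrinogen gamma, Ly9 and Pik3r5. Fgg was 3.18 above WT in Veh, 3.15 with anti-miR-21 and 3.23 with ACEi on the log2 scale, nearly the same in the 3 mutant groups. Among the markers themselves, Clu and Dcdc2a were nearest (0.43), then Vcam1 and Cd44 (0.53), and Lcn2 and Prom1 were furthest apart (3.95).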

How the data were processed

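Total RNA of whole kidney was sequenced from 20 mice. The authors aligned paired reads to GRCm38 and deposited estimated counts per gene, a table of FPKM, and a library table with counts of alignments (70004591 to 73294858 per library). Of the positive estimated counts 27.9% were not whole, and they were rounded. Of the FPKM table, 3 columns matched no sample and were not used. The strand setting of the counting is not given in the sources used here. FPKM entries come from a different gene model than the counts and served for levels between genes and as an alternative.

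Genes were kept by filterByExpr (minimum count 10, minimum total 15). Groups were compared with edgeR 4.0.16 (R 4.3.3): TMM scaling, 1 coefficient per group over all 20 mice, quasi-likelihood F test and Benjamini-Hochberg adjustment at 0.05. Log2 CPM used a prior count of 2. The script was tested on simulated data. Alternatives were other scalings and filters, a flow cell term, flow cell A alone (13 libraries, 7 being on flow cell B), DESeq2 1.42.0, limma 3.58.1 on log2(FPKM + 1) or log2(FPKM + 0.1), leaving out each mouse and, added after seeing the data, leaving out the 4 libraries whose adipocyte genes summed to over 50 CPM. Flow cell A held 3 WT, 4 Veh, 5 anti-miR-21 and 1 ACEi libraries, and flow cell B held 2, 2, 1 and 2. Each mouse was a separate animal, and 0 pairs of libraries were identical. Log2 ratios between markers were also added after seeing the data and tested with scipy 1.17.1.

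The markers and gene lists were chosen with earlier results of these data known. Named genes were the 7 markers, their listed partners, at most the 4 called genes of each list with the largest change between Veh and WT, the 3 nearest protein-coding genes of each marker, and outliers among the mice. Promoter and miRNA sequences are from RefSeq (GRCm38.p6), UTRs and positions from GENCODE M21. The result of 1 gene list is not reported here.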

Additional observations from a re-analysis of the deposited data

Results flagged for a closer look

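Prom1 in the WT mouse A6 was far from the other 4 WT mice, at 65.9 CPM against 33.1 to 39.9 CPM. This was 1 of 21 groups of a marker tested for a sample standing apart with Dixon's test on log2 CPM, a test that marks about 1 in 20 groups by chance. The same mouse is the one that the lower anti-miR-21 mice overlap.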

How the results depend on the processing

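Across the alternatives, all 7 markers stayed higher in Veh, in anti-miR-21 and in ACEi than in WT, and 0 of 7 were called between the treatments. Between 6 and 7 were called lower with anti-miR-21 than Veh, and between 2 and 6 with ACEi than Veh. The lowest counts under ACEi came from leaving out 1 mouse, with 2 called without A13 and 3 without A19 or A23, and from leaving out the 4 libraries high in adipocyte genes, with 2 called (chosen after seeing the data). Leaving out 1 mouse in turn, the log2 difference of Havcr1 between ACEi and Veh reached 0.03 (without A16), and its mean position between Veh and WT reached -0.915% without A1 and -1.7% without A16. Of the member values under ACEi against Veh, 199 kept their call and direction, 16 lost the call, 1 gained it and 1 changed sign. Under anti-miR-21, 9 gained the call, all for Havcr1, and none lost it. Prom1 under ACEi was also lost with a flow cell term (log2 -0.47, edgeR adjusted p = 0.051). The number of genes called between the treatments was 103 with edgeR, 437 with DESeq2, 66 without a filter, 155 with at least 10 counts in every mouse and 60 with limma on log2(FPKM + 0.1). Leaving out 1 mouse it was 25, 25 and 21 without the ACEi mice A11, A13 and A23, 42 and 49 without A15 and A22, 65 without A10, and 94 higher plus 120 lower without A8. Without the 4 libraries high in adipocyte genes it was 63, and 66% of the calls under ACEi against Veh were then higher, in place of 52.4%. The cause was not tested. ACEi was not fitted within flow cell A, which held 1 of its libraries. No paired analysis was possible because each mouse has its own number and none is shared between groups.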

Other observations

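Nephron segments beyond the proximal tubule were also lower in Veh than in WT for most of their listed genes. Of 4 distal tubule genes 3 fell and 1 rose (median log2 -1.66), led by Pvalb (-4.03), a calcium-binding protein, and Slc12a3 (-1.85), the thiazide-sensitive cotransporter, and both were higher than Veh with anti-miR-21 (3.08 and 1.31) and ACEi (2.11 and 1.0). Of 4 thick ascending limb genes 3 fell and 1 rose, with Slc12a1 at -1.11 and Umod, encoding uromodulin, at -0.90. With anti-miR-21 Umod was 0.73 higher than Veh, while with ACEi 0 of the 4 were called by edgeR (Umod 0.49, adjusted p = 0.071), and 1, Umod, had an unadjusted p under 0.05. Of 5 collecting duct genes 3 fell (median -0.44). Among all genes, 34.0% fell in Veh.

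Lymphocyte genes rose in Veh, with all 5 T cell genes called (median log2 3.48, Cd3e 3.75) and 4 of 5 B and plasma cell genes (median 1.71). Among all genes, 39.0% rose in Veh and 30.5% fell with anti-miR-21. With anti-miR-21 3 of the T cell genes fell, among them Cd3e (-0.95, edgeR adjusted p = 0.018). With ACEi none of the 5 was called by edgeR (Cd3e -0.23, adjusted p = 0.67), and whether the treatments differ in this is not shown by these calls.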
